A study of Mus musculus with 10 samples.

Results

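The genes described here encode matricellular proteins, proteoglycans and a protease inhibitor (Timp3) that fibroblasts secrete: Thbs1, Thbs2, Sparc, Postn, Tnc, Timp3, Dcn, Bgn, Lum and Ogn. They were taken by gene symbol from a deposited table of ATAC-seq signal per gene. Each of the 10 symbols matched 1 row, so the group is 10 of the 21965 genes in the table. All 20 signal columns, 2 for each of 10 conditions, were used. ATAC-seq reads where a transposase can insert into chromatin, so the values are accessibility at a gene and not its expression.

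Matricellular proteins are secreted into the extracellular matrix but act mainly as modulators of cell adhesion, growth factor signalling and protease activity rather than as load-bearing fibres. Small leucine-rich proteoglycans carry glycosaminoglycan chains on a leucine-rich core, bind fibrillar collagen and regulate how its fibrils assemble. Both groups are part of the secretory programme of fibroblasts, the cells from which reprogramming to pluripotency starts in this system, and the mesenchymal programme is known to be shut down as reprogramming proceeds.

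Every library was made from mouse embryonic fibroblasts (strain label ICR) taken from E13.5 embryos, which carried GFP under an Oct4 promoter. All of them were infected with pMXs retrovirus packaged in plat-E cells and kept in medium for mouse embryonic stem cells. The control received a virus with Flag alone. The labels of 4 conditions name 1 factor each, which was Sox2, Klf4, Oct4 or, as Oct4-L80A, a form of Oct4 with the L80A mutation, though the library labelled Oct4 also had Sox2 signal (values below). The other 5 conditions all received Sox2 and Klf4. SKO added Oct4, and SKO+shBrg1 added Oct4 and a hairpin named for Brg1, the ATPase of a chromatin remodelling complex. SKO-L80A added the Oct4 mutant in place of Oct4, SKO-L80A+Vc is the same with vitamin C at 50 µg/ml, and SKO-L80A+Ga also carried Gadd45a, a gene tied to DNA demethylation. Neither the share of cells that took up each virus nor the day of collection is stated in the labels. In a bulk library, fewer fibroblasts and less accessible chromatin per fibroblast cannot be told apart.

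Each condition has 1 library and the 2 columns were counted as 1 sample, so no difference below has a replicate check or a test. The difference between conditions is given as log2 of the signal with a pseudocount of 0.138, column by column, relative to the median difference of all genes in that column, and averaged over both columns. It is called the relative difference. A gene counted as called where this difference was 2-fold or more in either direction and at least 1 of the compared conditions had a mean signal of 6.92, which is the median over the whole table. The column sums ran from 112439 to 370390, and the median of all genes in SKO+shBrg1 lay above that in Flag by 1.12 in column 1 and by 0.16 in column 2. Signal as deposited therefore carries a shift that differs between columns.

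The fibroblast label fits the markers in this table. Of 10 fibroblast genes (Col1a1, Col1a2, Col3a1, Pdgfra, Pdgfrb, Vim, Twist1, Prrx1, Fn1 and Ddr2), 8 reached the minimum signal in Flag, and 7 to 10 did in each of the other conditions. No fibroblast marker was at 0. Their median level, log2 relative to all genes, was 1.19 in Flag and between 0.56 and 0.95 in the other 9 conditions. As deposited, their summed signal was 171 in Flag and higher in SKO, SKO-L80A and SKO+shBrg1, at 195, 189 and 212. In the remaining conditions that sum lay between 118 and 163. Of 7 epithelial markers none reached the minimum in Flag and at most 2 did elsewhere. The deposited mean signal over Sox2 was 3.93 in Flag, 81.3 in the Sox2 library and 59.0 in the library labelled Oct4, whose label names no Sox2 virus. Every comparison with the library labelled Oct4 below carries that discrepancy. Reads over a factor gene may come from the viral insert, since the table does not separate the copies.

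Promoters are shown for 4 genes on which comparisons below turn, chosen with their values known. The reference table from RefSeq (GRCm38.p6, the assembly of mm10) gave promoters for 7 of the 10 genes. Shown are the 250 bases before the start, 5′ to 3′ along the gene, for Thbs2 (chr17:14694263-14694512, minus strand) and Sparc (chr11:55420081-55420330, minus strand), which had low signal in the Klf4 library, and for Timp3 (chr10:86300162-86300411, plus strand) and Ogn (chr13:49607765-49608014, plus strand), whose levels ran opposite to each other. Capitals mark matches to the motifs named after the sequences.
Thbs2: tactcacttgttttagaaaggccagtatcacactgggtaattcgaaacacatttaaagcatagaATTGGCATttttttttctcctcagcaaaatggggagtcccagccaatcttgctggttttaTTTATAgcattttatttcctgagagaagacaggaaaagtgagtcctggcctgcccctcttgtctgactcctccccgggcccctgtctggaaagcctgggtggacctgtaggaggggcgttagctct
Sparc: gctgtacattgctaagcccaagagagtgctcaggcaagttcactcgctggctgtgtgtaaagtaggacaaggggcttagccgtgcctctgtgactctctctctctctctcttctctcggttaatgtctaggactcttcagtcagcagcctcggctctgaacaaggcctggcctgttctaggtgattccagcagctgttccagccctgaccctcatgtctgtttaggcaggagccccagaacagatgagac
Timp3: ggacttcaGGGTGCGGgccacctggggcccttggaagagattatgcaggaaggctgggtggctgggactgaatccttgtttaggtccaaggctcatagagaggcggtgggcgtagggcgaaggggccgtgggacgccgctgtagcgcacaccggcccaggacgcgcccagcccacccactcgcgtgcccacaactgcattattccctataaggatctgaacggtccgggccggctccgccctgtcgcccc
Ogn: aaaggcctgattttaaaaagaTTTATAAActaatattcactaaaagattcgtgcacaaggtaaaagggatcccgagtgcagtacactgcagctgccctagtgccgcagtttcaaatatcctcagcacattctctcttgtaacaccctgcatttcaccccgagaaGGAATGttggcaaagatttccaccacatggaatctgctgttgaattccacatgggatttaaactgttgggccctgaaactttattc

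Both strands were searched for the AP-1 motif TGANTCA, the TEAD motif GGAATG, the KLF motif GGGTGNGG, the octamer motif ATGCNAAT bound by Oct4, the SOX motif ACAATG and the TATA box TATAAA. Over 32851 mouse promoters of the same length, 6.749% held the AP-1 motif, 12.64% TEAD, 14.86% KLF, 2.861% the octamer, 10.69% SOX and 12.37% TATA. Thbs2 held an octamer match on the minus strand of the gene, 186 to 179 bases before the start, and a TATA match on that strand at 126 to 121 bases. Sparc held none of the 6. Timp3 held a KLF match 242 to 235 bases before the start. Ogn held a TEAD match at 86 to 81 bases, and TATA matches on both strands that overlap one another at 229 to 222 bases. Among the other promoters, Bgn held a KLF match, Tnc an octamer and a TATA match, both also present from its second start, and Postn a TATA match from its second start. A match is a string of letters in this window only.

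The 2 thrombospondins are trimeric glycoproteins that bind integrins and CD47 and restrain blood vessel growth, and Thbs1 also activates latent TGF-beta. Over Thbs2 (ENSMUSG00000023885, chr17:14665500-14694262), the signal was 15.0 in column 1 and 22.2 in column 2 in Flag, and 7.01 and 9.33 in the Klf4 library. It was 15.3 and 20.3 with Sox2, 28.6 and 31.7 in the Oct4-labelled library, and 10.9 and 30.3 with Oct4-L80A. With Sox2, Klf4 and Oct4 or its mutant together it was 38.0 and 34.9 in SKO, 45.4 and 28.4 in SKO+shBrg1, 31.1 and 35.0 in SKO-L80A, 22.7 and 21.4 in SKO-L80A+Vc, and 27.1 and 22.2 in SKO-L80A+Ga. The Klf4 library was the lowest in both columns, below every other library of the same column.

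Thbs2 fell in Klf4 against Flag, by 2.28-fold: the relative difference was -1.19, and -1.20 and -1.17 in the columns. It was the 1 gene of the 10 called in that comparison, in which 192 of 11000 genes at or above the minimum were called, or 1.75%. Of those 11000 genes, 0.145% lay lower than Thbs2. No such value was seen where Klf4 came with Sox2 and Oct4 or its mutant. The relative difference from Flag was 0.46 in SKO, 0.33 in SKO-L80A, 0.33 in SKO+shBrg1, 0.22 in SKO-L80A+Vc and 0.13 in SKO-L80A+Ga. Each was above 0 in both columns. Over the 10 conditions, the Thbs2 level relative to all genes ranged 3.24-fold, more than for 98.8% of the genes that reach the minimum in a condition. In the order of the 10 levels, only the step from SKO-L80A+Ga down to Klf4 left the columns of both neighbours apart. The other 8 neighbouring pairs overlapped. How often neighbours stand apart over all genes was not counted, so the orders here and below only describe each gene.

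Thbs1 (ENSMUSG00000040152, chr2:118111876-118127133) varied less. Its signal ran from 8.18 in column 1 of Oct4-L80A to 30.6 in column 1 of SKO+shBrg1, with a median of 19.6, and Flag had 15.8 and 24.9. Relative to all genes its level was highest in Flag, whose columns lay above those of SKO-L80A+Vc, the next in order. The relative difference from Flag was below 0 on average in all 9 comparisons, and none was called. It ran from -0.56 with Oct4-L80A to -0.11 with SKO-L80A+Vc, where the columns were at 0.02 and -0.23. Between 0.796% (Oct4-L80A) and 34.2% (SKO-L80A+Vc) of the tested genes lay lower than Thbs1. The direction was common in some comparisons: 17.1% (SKO-L80A) to 55.3% (Oct4-L80A) of the tested genes lay below 0 in both columns. For Thbs1 it holds against the median of all genes. In the signal as deposited, Thbs1 was higher in SKO than in Flag by 0.27 on the log2 scale.

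**Figure D1:**
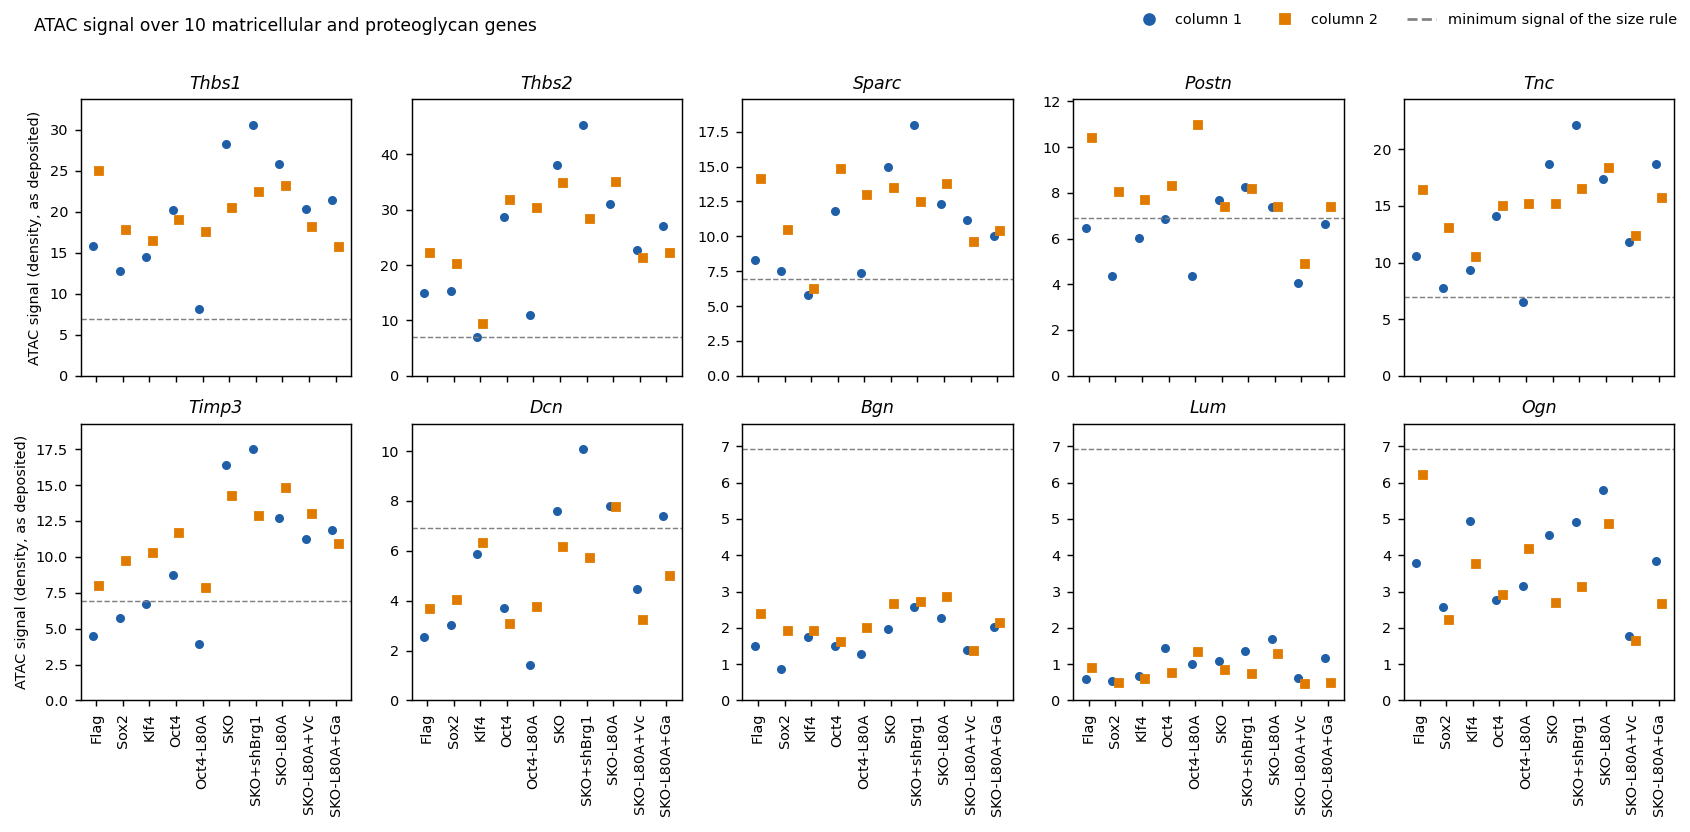
ATAC signal as deposited (vertical axes, density) over each of the 10 genes in the 10 conditions, with column 1 as circles, column 2 as squares and the minimum signal of 6.92 as a dashed line. Thbs2 is lowest in the Klf4 library in both columns, at 7.01 and 9.33, while Bgn, Lum and Ogn stay under the dashed line throughout.

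Sparc encodes a collagen- and calcium-binding glycoprotein that counters cell spreading. Over Sparc (ENSMUSG00000018593, chr11:55394159-55420080) the signal was 8.31 and 14.1 in Flag and 5.81 and 6.22 in the Klf4 library, the lowest in both columns. The other 8 libraries lay between 7.35 and 18.0. The relative difference of Klf4 from Flag was -0.86, with -0.63 and -1.09 in the columns, short of the 2-fold line on average and past it in column 2. Of the genes tested there, 0.545% lay lower. In the order of levels, the columns of Klf4 stood apart from those of its neighbour, SKO-L80A+Ga. In the other 8 comparisons with Flag, the values for Sparc ran from -0.38 in SKO-L80A+Ga to 0.09 in the library labelled Oct4. So the 2 genes with the lowest values in the Klf4 library, Thbs2 and Sparc, did not show them where Klf4 came with Sox2 and Oct4 or its mutant. The signal over the Klf4 gene differed as well. Its deposited mean was 156 in the Klf4 library, 72.5 in SKO and 73.1 in SKO-L80A. It was 66.5 in SKO+shBrg1, 39.8 in SKO-L80A+Vc and 45.4 in SKO-L80A+Ga. The part of this in the values of Thbs2 and Sparc was not tested.

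Postn encodes periostin, a matricellular protein that links collagen to other matrix components and is made by activated fibroblasts. Over Postn (ENSMUSG00000027750, chr3:54359267-54391041) Flag had 6.45 and 10.4, SKO 7.67 and 7.39, SKO+shBrg1 8.23 and 8.18, SKO-L80A 7.40 and 7.38, SKO-L80A+Vc 4.04 and 4.89, and SKO-L80A+Ga 6.62 and 7.36. SKO-L80A+Vc was the lowest of the 10 libraries in both columns. The relative difference from Flag was -0.65 in SKO, -0.64 in SKO+shBrg1, -0.66 in SKO-L80A, -0.92 in SKO-L80A+Vc and -0.52 in SKO-L80A+Ga. All 5 were below 0 in both columns, and none was called, while the signal as deposited gave -0.12 in SKO and, with the other sign, 0.0038 in SKO+shBrg1. At most 0.958% of the tested genes lay lower than Postn in any of these 5 comparisons. Against Flag, Postn was at -0.36 with Sox2, -0.29 with Klf4, -0.31 in the library labelled Oct4 and -0.08 with Oct4-L80A. In the order of levels, the columns of Flag and Oct4-L80A overlapped, as did those of the 4 lowest conditions, SKO, SKO+shBrg1, SKO-L80A and SKO-L80A+Vc, from neighbour to neighbour.

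Tnc encodes tenascin C, an oligomeric glycoprotein of embryonic and wounded matrix. Over Tnc (ENSMUSG00000028364, chr4:63959785-64047015) the signal ran from 6.49 in column 1 of Oct4-L80A to 22.2 in column 1 of SKO+shBrg1, with a median of 15.1, and Flag had 10.6 and 16.4. The relative difference from Flag lay between -0.43 with Klf4 and 0.08 with SKO-L80A+Ga. Its range over the 10 conditions, 1.44-fold, was the smallest of the 10 genes, and 66.3% of genes had a smaller one.

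Timp3 encodes a matrix-bound inhibitor of metalloproteases. Over Timp3 (ENSMUSG00000020044, chr10:86300412-86349505) the signal was 4.51 and 7.95 in Flag, 5.72 and 9.74 with Sox2, 6.72 and 10.3 with Klf4, 8.75 and 11.6 in the Oct4-labelled library, and 3.93 and 7.85 with Oct4-L80A. It was 16.4 and 14.2 in SKO, 17.5 and 12.9 in SKO+shBrg1, 12.7 and 14.8 in SKO-L80A, 11.2 and 13.01 in SKO-L80A+Vc, and 11.9 and 10.9 in SKO-L80A+Ga. In column 1, the 5 conditions with Sox2, Klf4 and Oct4 or its mutant all lay above the 5 others. In column 2, SKO-L80A+Ga lay below the library labelled Oct4.

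The relative difference of Timp3 from Flag was 0.94 in SKO-L80A+Vc, 0.80 in SKO, 0.66 in SKO+shBrg1, 0.65 in SKO-L80A, 0.62 in SKO-L80A+Ga, 0.54 in the library labelled Oct4, 0.44 with Klf4, 0.40 with Sox2 and 0.05 with Oct4-L80A. Of these 9 values, 8 were above 0 in both columns and none was called. Between 1.74% and 6.37% of the tested genes lay above Timp3 in those 8 comparisons. The columns agreed well for this gene, with a median gap of 0.10 between them relative to all genes. In the order of levels, both columns of Flag lay below both of Oct4-L80A, which in turn lay below both of Klf4, and the columns of SKO-L80A+Vc lay above those of SKO. Without the centring on all genes, Timp3 passed 2-fold in 3 comparisons, as given in the closing section.

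The small leucine-rich proteoglycans Dcn, Bgn, Lum and Ogn lay mostly below the minimum signal. Bgn, Lum and Ogn were below the minimum in all 10 conditions and could not be called, and the mean of Dcn reached it in 2. Decorin, the product of Dcn, binds collagen fibrils and TGF-beta. Over Dcn (ENSMUSG00000019929, chr10:97479500-97518163) the signal was 2.54 and 3.69 in Flag, 3.02 and 4.02 with Sox2, 5.88 and 6.31 with Klf4, 3.71 and 3.08 in the Oct4-labelled library, and 1.40 and 3.75 with Oct4-L80A. With Sox2, Klf4 and Oct4 or its mutant together it was 7.60 and 6.16 in SKO, 10.1 and 5.70 in SKO+shBrg1, 7.81 and 7.74 in SKO-L80A, 4.46 and 3.22 in SKO-L80A+Vc, and 7.39 and 4.996 in SKO-L80A+Ga.

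Relative to Flag, Dcn differed most in the Klf4 library, by 0.93, with 1.04 and 0.83 in the columns, so that, relative to all genes, Dcn was highest in the library where Thbs2 and Sparc were lowest. As deposited, its mean signal was higher in SKO+shBrg1, at 7.89, than with Klf4, at 6.09. The values were 0.79 in SKO-L80A, 0.67 in SKO-L80A+Ga, 0.63 in SKO+shBrg1, 0.60 in SKO and 0.24 in SKO-L80A+Vc, all above 0 in both columns. Of all genes, 24.9% (SKO-L80A+Ga) to 34.9% (SKO-L80A) lay above 0 in both columns there. Sox2 gave 0.27, the library labelled Oct4 -0.06 and Oct4-L80A -0.23. All 9 neighbouring pairs in the order of Dcn levels overlapped in their columns.

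Ogn encodes osteoglycin, also called mimecan, a proteoglycan of bone, cornea and vessel wall. Over Ogn (ENSMUSG00000021390, chr13:49608015-49624501) the signal was 3.78 and 6.21 in Flag, 2.56 and 2.21 with Sox2, 4.93 and 3.76 with Klf4, 2.78 and 2.92 in the Oct4-labelled library, and 3.14 and 4.16 with Oct4-L80A. It was 4.56 and 2.69 in SKO, 4.93 and 3.14 in SKO+shBrg1, 5.80 and 4.86 in SKO-L80A, 1.78 and 1.64 in SKO-L80A+Vc, and 3.84 and 2.67 in SKO-L80A+Ga. The 2 lowest of its 20 values were those of SKO-L80A+Vc.

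The relative difference of Ogn from Flag was -1.49 in SKO-L80A+Vc, -0.98 in SKO, -0.94 in the library labelled Oct4, -0.93 in SKO+shBrg1, -0.90 with Sox2 and -0.87 in SKO-L80A+Ga. It was -0.39 in SKO-L80A, -0.25 with Oct4-L80A and -0.19 with Klf4. The first 7 of these 9 values were below 0 in both columns, although in SKO-L80A the signal as deposited was above that in Flag, by 0.13. Of all genes, 24.9% (SKO-L80A+Ga) to 34.9% (SKO-L80A) lay below 0 in both columns in those 7 comparisons. The columns differed more for Ogn than for Timp3, with a median gap of 0.44 and a largest gap of 1.14, in the Sox2 library. In the order of levels, only SKO-L80A+Vc, the lowest, stood apart from its neighbour, SKO.

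Biglycan, the product of Bgn, is a close relative of decorin, and lumican, the product of Lum, regulates fibril spacing in cornea and skin. Over Bgn (ENSMUSG00000031375, chrX:73483601-73495936) the signal ran from 0.861 to 2.84, with 1.501 and 2.39 in Flag. Its relative difference from Flag was below 0 on average in all 9 comparisons, from -0.48 in SKO-L80A+Vc to -0.07 with Oct4-L80A. The columns had opposite signs with Klf4 (0.07 and -0.23), Oct4-L80A (0.10 and -0.24), SKO (-0.60 and 0.06) and SKO+shBrg1 (-0.39 and 0.01). The signal as deposited was higher in SKO than in Flag, by 0.26. Over Lum (ENSMUSG00000036446, chr10:97565501-97572703) it ran from 0.456 to 1.70, with 0.591 and 0.890 in Flag. Lum had its highest relative value with Oct4-L80A, at 0.74, with 0.94 and 0.53 in the columns, and its lowest in SKO-L80A+Vc, at -0.43. The levels of both genes overlapped between all neighbouring conditions.

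**Figure D2:**
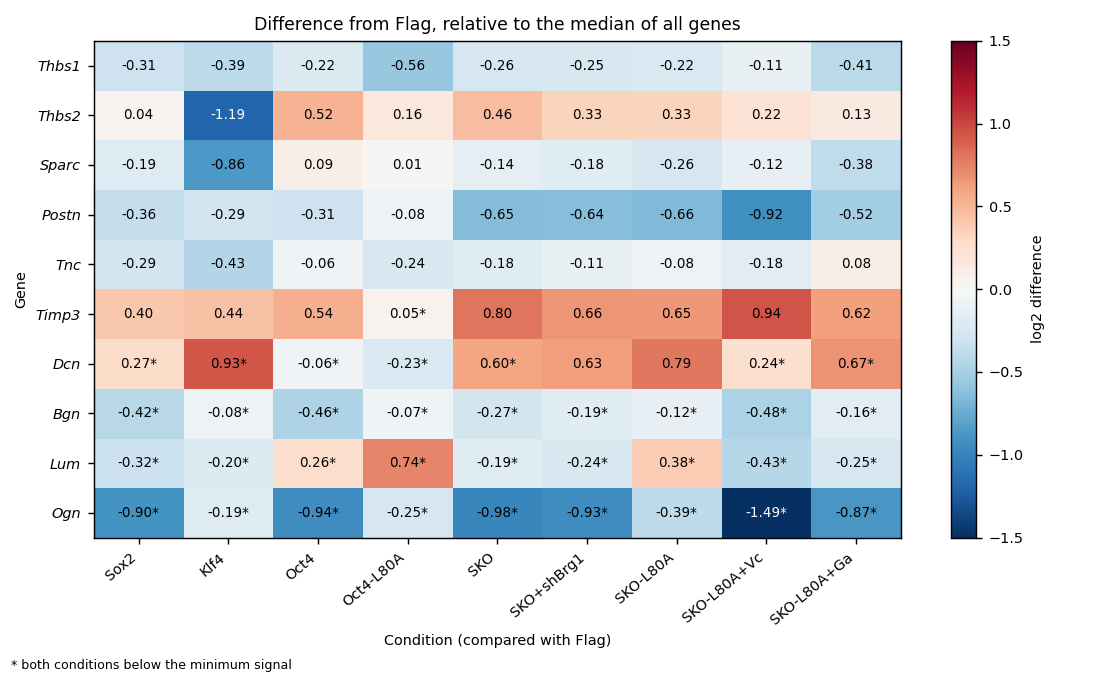
Relative difference from Flag (log2, colour scale from -1.5 to 1.5) of the 10 genes (rows) in 9 conditions (columns), each cell the average of 2 signal columns, with an asterisk where both conditions were below the minimum signal. Timp3 is above 0 across the row, up to 0.94, while Postn and Ogn are below 0, down to -0.92 and -1.49, and Thbs2 stands out in the Klf4 library at -1.19.

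The 9 comparisons with Flag share that library, so they are not independent of one another. Among them, Klf4 was the 1 comparison with a called gene of the 10. With Sox2 alone 0 of the 6 genes at or above the minimum were called, where the background was 0.347% of genes. In the library labelled Oct4 it was 0 of 6 against a background of 0.495%, and with Oct4-L80A 0 of 5 against 0.0383%. A count of 0 among so few genes is near these shares.

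In the comparisons of the 5 SKO and SKO-L80A conditions with Flag, no gene of the 10 was called either, and the called genes of the whole table were mostly higher. The background was 2.35% in SKO (274 genes higher and 19 lower), 2.45% in SKO-L80A, 2.34% in SKO+shBrg1, 1.9% in SKO-L80A+Vc and 1.56% in SKO-L80A+Ga. The median of the 10 genes in SKO was -0.18, with a range from -0.98 to 0.80, against a median of 0.07 over the tested genes. In SKO, 3 of the 10 genes lay above 0 in both columns, Thbs2, Timp3 and Dcn, and 6 below. Of all genes in the table, 31.5% lay above and 31.5% below. Among the 6 genes at or above the minimum, 2 lay above and 4 below, where 43.8% and 19.8% of the tested genes did. Among the 4 below the minimum, 1 lay above and 2 below, where 15.2% and 46.8% of all genes below the minimum did. This tally depends on the centring: with the signal as deposited, the mean of both columns was above 0 for 8 of the 10 genes in SKO, and below 0 for Postn and Ogn.

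**Figure D3:**
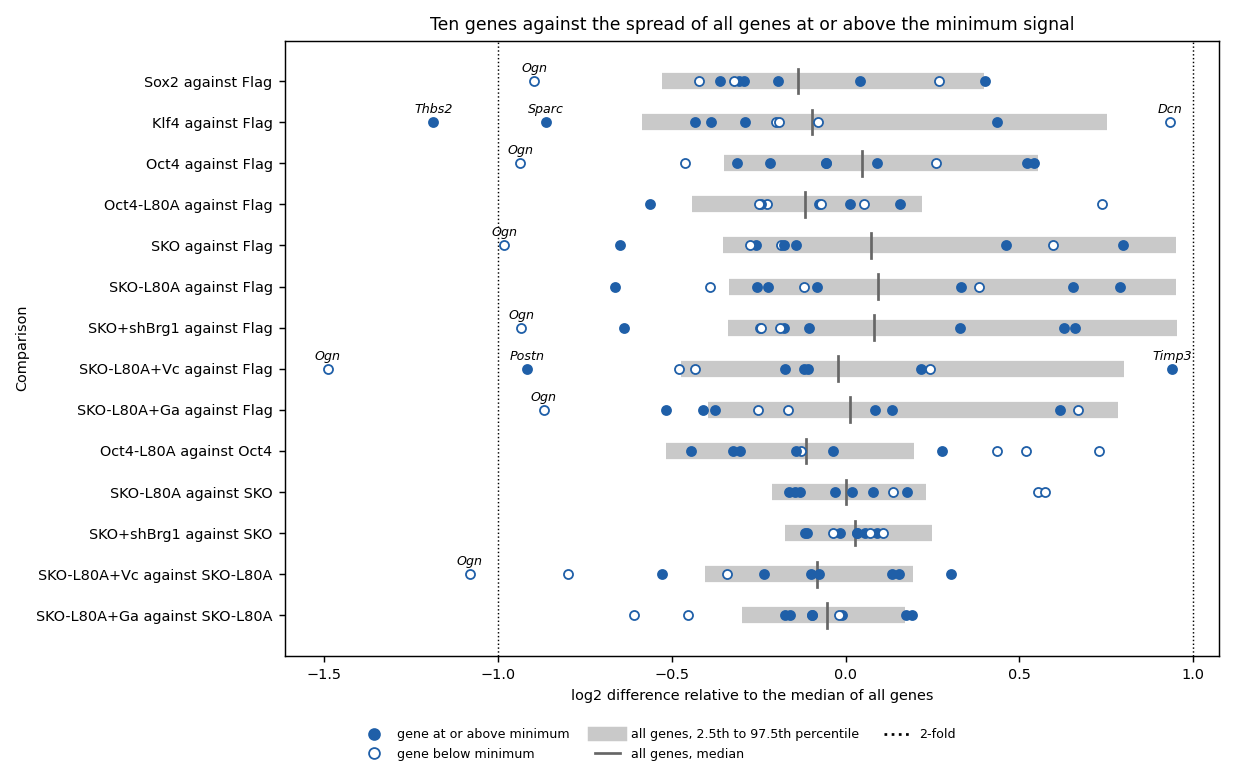
Relative difference (log2, horizontal axis) of the 10 genes in 14 comparisons, filled where the gene was at or above the minimum signal and open where it was not, over grey bars that span the middle 95% of all tested genes, with a line at their median. Postn lies left of the grey bar in the comparisons of the 5 SKO and SKO-L80A conditions with Flag, and Thbs2 is the 1 filled point past the dotted 2-fold lines.

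Epithelial markers differed between the same libraries. As deposited, the summed signal of the 7 markers was 11.6 in Flag, 16.1 with Sox2, 21.3 with Klf4 and 12.9 with Oct4-L80A. It was 18.4 in the library labelled Oct4 and 28.0 to 43.3 in the 5 conditions with Sox2, Klf4 and Oct4 or its mutant. Relative to all genes, their median level was -1.85 in Flag and between -1.06 and -0.80 in those 5 conditions. In the remaining conditions that level lay between -1.49 and -1.13. Cldn3, a tight junction gene, was called higher than Flag in all 5 conditions with Sox2, Klf4 and Oct4 or its mutant, at 1.95 in SKO. Markers of endothelium, muscle and pluripotent cells, 5 of each, were below the minimum in every library apart from 1 endothelial marker in SKO+shBrg1. Of 5 blood markers at most 2 reached it. Of 5 chondrocyte markers 1 to 3 did in each library, with a summed signal as deposited of 32.8 in Flag, 55.2 in SKO and 59.0 in SKO-L80A. Col2a1, a cartilage collagen gene, was called higher than Flag in SKO at 1.02 and in SKO-L80A at 1.21. The median relative difference of the 5 chondrocyte markers was below 0 in both, at -0.11 and -0.18. The part of other cell types in the values of the 10 genes was not tested.

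Comparisons among the factor conditions ask what the Oct4 mutant, the Brg1 hairpin, vitamin C and Gadd45a change. In SKO+shBrg1 against SKO, which differ by the Brg1 hairpin, all 10 relative differences lay between -0.12 and 0.11. For some genes such an average joins columns of opposite sign, as for Thbs2 at 0.14 and -0.36 and Dcn at 0.29 and -0.18. The background there was 0.00781%, or 1 of 12811 genes. Of the 10 genes, 2 lay above 0 in both columns, Thbs1 and Tnc, and 1 below, Timp3. Over all genes, 27.5% lay above and 27.5% below, so these counts do not set the 10 genes apart.

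SKO-L80A against SKO likewise had no called gene of the 10, where 0.0158% of genes were called. Ogn was the highest of the 10, at 0.58 with 0.56 and 0.59 in the columns, and Lum followed at 0.55 with 0.79 and 0.32. Of the 12635 tested genes 0.0237% lay above the value of Ogn, but Ogn itself was below the minimum, where columns agree less. The other 8 genes lay between -0.16 and 0.18. Oct4-L80A against the library labelled Oct4 had the same pair on top, Ogn at 0.73 (0.91 and 0.55) and Lum at 0.52 (0.25 and 0.79), followed by Bgn at 0.44 (0.54 and 0.33). Ogn, Lum and Bgn were below the minimum, and this was the common direction there. Of genes below the minimum, 51.8% lay above 0 in both columns and 11.3% below, against 9.53% and 48.3% of the tested genes. Timp3 was at the bottom, at -0.45 (-0.38 and -0.51). None was called, against a background of 0.41%, and the all-gene median itself differed by -0.74 in column 1 and -0.05 in column 2.

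Among the comparisons of factor conditions, the largest values lay between the libraries with and without vitamin C. In SKO-L80A+Vc against SKO-L80A, Ogn was at -1.08, with -1.29 and -0.87 in the columns, a 2.12-fold lower relative signal at a gene under the minimum. Lum was at -0.80 (-0.95 and -0.64), Dcn at -0.53 (-0.45 and -0.61) and Bgn at -0.34 (-0.32 and -0.37). All 4 small leucine-rich proteoglycans thus lay below 0 in both columns. Of genes below the minimum, as Ogn, Lum and Bgn were, 12.3% did, and of the tested genes, 50.5%. Dcn, the 1 of the 4 at or above the minimum in SKO-L80A, lay above 0.745% of the tested genes. The family as a whole did not share this direction. The median of 13 other small leucine-rich proteoglycans was 0.09, and -0.30 over the 2 of them at or above the minimum. Timp3 lay the other way, at 0.30 (0.17 and 0.44), with 0.793% of tested genes above it. No gene of the 10 was called, against a background of 0.016%.

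With Gadd45a in place of vitamin C, Ogn and Lum were again the lowest, at -0.45 (-0.48 and -0.43) and -0.61 (-0.40 and -0.82), while Dcn was at -0.10 and Bgn at -0.02, each with columns on both sides of 0. Here 0 of 12491 genes were called, a background of 0%. Both comparisons share the SKO-L80A library, as does SKO-L80A against SKO, where Ogn and Lum were the highest. Relative to all genes, the Lum level was -2.62 in SKO-L80A, -3.16 in SKO, -3.17 in SKO-L80A+Ga and -3.32 in SKO-L80A+Vc. For Ogn these levels were -0.87, -1.43, -1.26 and -1.85. The difference between vitamin C and Gadd45a was not tested.

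**Figure D4:**
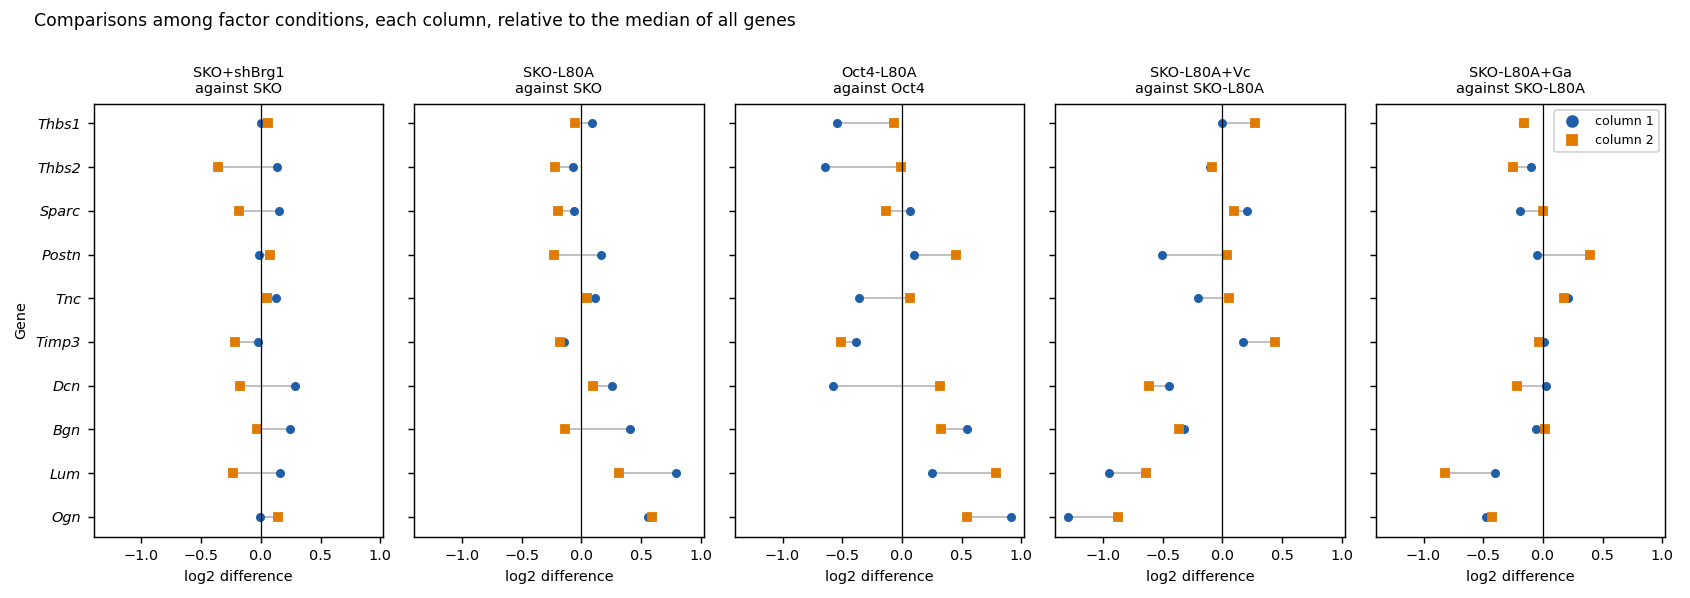
Relative difference (log2, horizontal axes) of each gene in 5 comparisons among factor conditions, with column 1 as circles, column 2 as squares and a line joining them. With vitamin C, Ogn, Lum, Bgn and Dcn lie left of 0 in both columns, from -1.08 to -0.34 on average, whereas with the Brg1 hairpin the averages lie between -0.12 and 0.11 and the columns of Thbs2 (0.14 and -0.36) and Dcn (0.29 and -0.18) fall on both sides of 0.

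Levels of the 10 genes were also compared with each other across the 10 conditions. Pearson's r between the levels relative to all genes reached 0.8 in size for 6 of 45 pairs. It did so for 4.50% of pairs of the 12903 genes that reach the minimum in a condition and for 8.57% of pairs of all genes. These correlations are descriptions over 10 libraries that share their normalisation, and nothing particular to these genes is read from the count. Sparc and Dcn had r = -0.97 and Spearman's rho = -0.98, and r was -0.88 in column 1 and -0.81 in column 2. Leaving out Klf4 and Oct4-L80A, the conditions farthest out for Sparc, gave r = -0.97 over 8 conditions. A lower Sparc level thus went with a higher Dcn level with and without the Klf4 library.

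The other 5 pairs link Timp3, Ogn, Bgn and Postn. Timp3 and Ogn had r = -0.92 and rho = -0.95, with r = -0.81 without Flag and SKO-L80A+Vc. Bgn and Ogn had r = 0.92 (0.83 without the 2 farthest conditions), Postn and Timp3 -0.90 (-0.73), Timp3 and Bgn -0.86 (-0.77), and Postn and Ogn 0.81 (0.57). In column 1, r for these 5 pairs lay between 0.83 and 0.91 in size. In column 2 it was smaller, at -0.75 for Timp3 and Ogn, 0.51 for Bgn and Ogn, and -0.76 for Postn and Timp3. Timp3 and Bgn had -0.48 there, and Postn and Ogn 0.67. Genes that share a class did not always vary together. The thrombospondins had r = 0.16, and Dcn and Lum, which lie 47338 bases apart on chromosome 10, had r = -0.54.

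**Figure D5:**
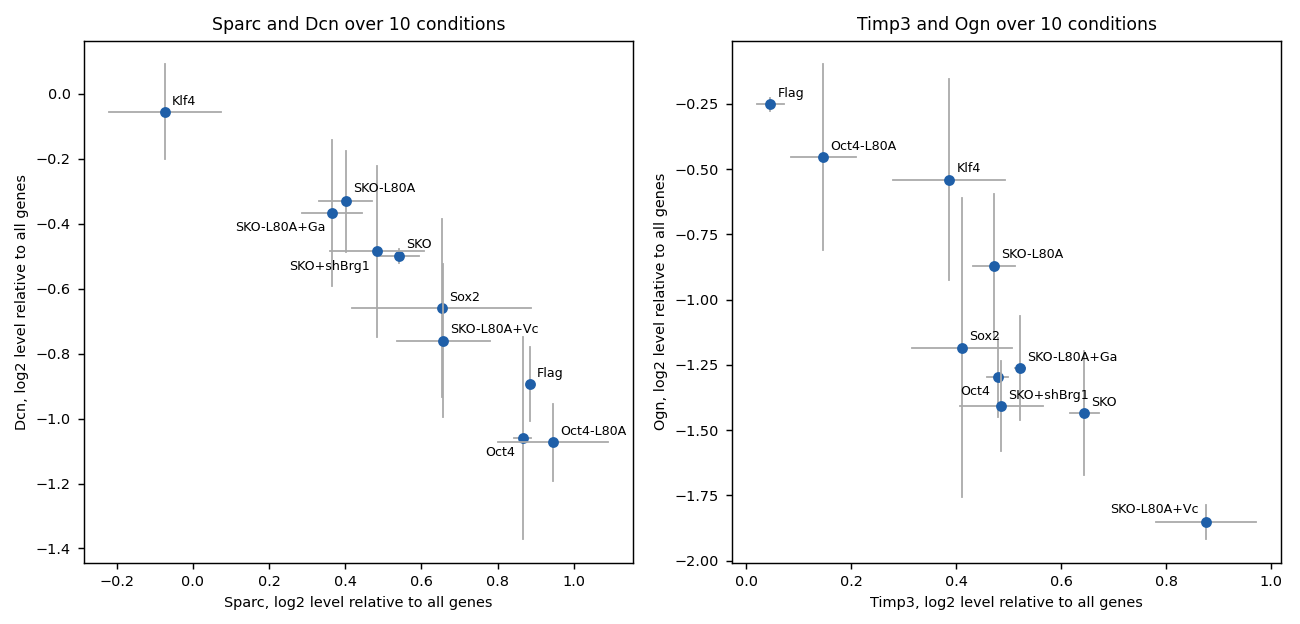
Levels of Sparc and Dcn (left) and of Timp3 and Ogn (right) in the 10 conditions, log2 relative to all genes, with grey lines spanning the 2 columns of each library. Sparc runs from -0.07 to 0.94 as Dcn runs from -0.06 to -1.07, and Timp3 from 0.05 to 0.88 as Ogn runs from -0.25 to -1.85.

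The genes with the most similar profile were sought among the 12903 that reached the minimum in a condition. For Thbs2 they were Meikin (r = 0.98) and Prkar2b (0.97), for Thbs1 Srp19 (0.94) and Nhp2 (0.92), for Sparc Mex3b (0.99) and Crkl (0.98), for Postn Iws1 and Galnt13 (both 0.98), and for Tnc Atg5 (0.95). For Timp3 they were Aldh1a3 and Ccdc113 (both 0.97), for Dcn Lrrc8b (0.96) and Rnf144b (0.95), for Bgn Slc16a14 and Rps6 (both 0.95), for Lum Zfp384 (0.95) and Eea1 (0.93), and for Ogn BC037034 (0.97) and Rpl17 (0.96). Each rests on 10 conditions.

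Several of the 10 genes lie in clusters or inside other genes. Ogn lies within Cenpp, a centromere protein gene, near the proteoglycan genes Omd, Aspn and Ecm2, and the table does not say how reads in both are assigned. Cenpp itself differed from Flag by -0.24 to 0.07 over the 9 comparisons. Aspn, which encodes asporin, was at -1.20 in SKO, -1.20 in SKO-L80A, -1.31 in SKO+shBrg1, -1.25 in SKO-L80A+Vc and -0.90 in SKO-L80A+Ga, from a Flag signal of 2.70 and 4.18, below the minimum. It was at -0.80 with Sox2, -0.90 with Klf4, -1.17 in the library labelled Oct4 and 0.04 with Oct4-L80A. In SKO-L80A, Aspn was thus lower relative to Flag than Ogn, at -0.39. Omd lay between -0.73 and -0.08, and Ecm2 had almost no signal, 0.152 and 0.172 in Flag.

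Timp3 lies within Syn3, a synapsin gene, whose values ran from -0.24 to 0.42 against Flag. In SKO-L80A+Vc against SKO-L80A, Syn3 was at -0.20 where Timp3 was at 0.30. Beside Dcn and Lum lie Kera and Epyc, which had almost no signal, at 0.234 and 0.0824 for Kera and 0.149 and 0.120 for Epyc in Flag.

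Related genes were counted from lists of the same families. Of 20 other matricellular genes, 10 reached the minimum in Klf4 or Flag, 0 were called higher and 2 lower: Lgals1, which encodes galectin 1, at -1.07 (signal 8.89 and 13.7 against 17.8 and 29.4) and Fstl1, which encodes a secreted follistatin-like protein of the Sparc family, at -1.02 (4.58 and 7.93 against 9.51 and 15.4). No gene of that list was called in the other 13 comparisons. The median of the list's tested genes in Klf4 was -0.11, against -0.10 over all tested genes.

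Among 13 other small leucine-rich proteoglycans, Prelp, whose product anchors basement membrane to connective tissue, was called higher than Flag in SKO at 1.73, SKO-L80A at 1.73 and SKO+shBrg1 at 1.71. Its signal was 1.42 and 1.33 in Flag, and 8.52 and 5.93 in SKO. Podnl1 was called lower in SKO-L80A+Vc against Flag, at -1.17. Among 21 receptors and partners of matricellular proteins, Tlr2, a receptor bound by biglycan, was called higher than Flag in SKO at 1.16, SKO-L80A at 1.07 and SKO-L80A+Vc at 1.36. No gene was called in any of the 14 comparisons among 6 other thrombospondins and tenascins, 20 large and cell-surface proteoglycans, 19 other TIMPs and matrix metalloproteases or 25 enzymes of glycosaminoglycan chains.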

How the data were processed

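The authors deposited 1 table of ATAC-seq signal, treated here as a density per gene, with 2 columns per library. Neither the window and scaling of this signal nor the relation of its columns is stated in the labels or the file. The submitters' processing notes name, without roles, DESeq2 1.22.2, MACS2 2.1.0, bedtools 2.25.0, deepTools, Picard, SAMtools 1.3.1, Bowtie2 2.2.5, cutadapt 1.13, Trimmomatic 0.35 and build mm10. The depth behind each value is unknown, so no interval was computed.

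Differences, calls and counts were computed over all 21965 genes with Python 3.11.15, numpy 2.4.6, pandas 2.3.3 and statsmodels 0.14.6. The pseudocount of 0.138 is the 10th percentile of values above 0. Folds are on the scale that includes it. The size rule was checked on simulated data. The planted changes all exceeded 2-fold and lay in genes well above the minimum signal, so recovery near either limit was not checked. Levels are log2 signal minus the median of all genes in the column, so a difference of 2 levels need not equal the relative difference, which uses the median of per-gene differences. The order of levels calls neighbours apart when their 2 columns do not overlap.

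Named genes are the 10 members, called genes of the related lists (at most 3 per list and comparison), chromosomal neighbours, and the 2 genes with the highest r for each member, of which 1 is not reported here. The members, lists and rules were chosen with earlier results of these data known. Alternatives were the signal as deposited, quantile normalisation, removal of the trend with mean signal (lowess), a pseudocount 4 times larger or smaller, no minimum signal, and each column alone.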

Additional observations from a re-analysis of the deposited data

How the results depend on the processing

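Thbs2 stayed past the 2-fold line in Klf4 against Flag under all 8 alternatives, with relative differences between -1.21 and -1.12. Column 2 alone called 2 of the 10 genes there, Sparc being the other. With the signal as deposited, 1 gene was called higher in SKO against Flag (Timp3, 1.33), 2 in SKO-L80A against Flag and 2 in SKO+shBrg1 against Flag (Dcn and Timp3 in both), and 1 lower in SKO-L80A+Vc against SKO-L80A (Dcn). In SKO against Flag, that setting called 1370 genes of the table higher and 4 lower, against 274 and 19. With no minimum signal, Ogn was the 1 gene called in SKO-L80A+Vc against Flag and the 1 called in SKO-L80A+Vc against SKO-L80A. The signal as deposited gave the other sign for 32 of the 140 values of the 10 genes in 14 comparisons, and for 3 of the 61 that were at least 0.3 in size. Quantile normalisation changed the sign of 5 and removal of the trend that of 7, none of them among those 61. Both columns had the same sign in 98 of the 140. With 1 library per condition no replicate could be left out. The depth is unknown, so what it limits could not be measured.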
